A study of Mus musculus with 22 samples.

Results

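The clustered protocadherins are neuronal cell surface proteins encoded in neighbouring alpha, beta and gamma gene arrays on mouse chromosome 18. The 58 genes of the cluster were taken by position. Every deposited open chromatin peak with its summit between 36.90 and 37.85 Mb (GRCm38) was counted as a cluster peak, whatever its strength. Peaks at Taf7 and Diaph1, which are not protocadherin genes, are therefore among them. Over 22 libraries the cluster peaks fell into 142 consensus windows centred on summits, of 563530 in the whole genome. The 58 genes are 12 alpha (Pcdha1 to Pcdha12), 22 beta (Pcdhb1 to Pcdhb22), 12 gamma A and 7 gamma B genes and the 5 C-type genes Pcdhac1, Pcdhac2, Pcdhgc3, Pcdhgc4 and Pcdhgc5. Pcdhgb8 is listed as a transcribed pseudogene in the gene table.

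Open chromatin was measured by OMNI-ATAC-seq, in which a transposase cuts accessible DNA, in frozen hippocampus and frontal cortex of 11 adult male wild-type C57BL/6J mice. All 11 animals, controls included, had corticosterone (CORT) in their drinking water for 7 days, an injection of the organophosphate diisopropyl fluorophosphate (DFP) on day 8, and intermittent CORT over 5 weeks, a model of exposures linked to Gulf War Illness. On the last day 2 animals had saline and were collected at 6 h, and 3 animals each had the bacterial endotoxin LPS and were collected at 6, 12 or 24 h. No group lacked CORT and DFP, 1 further saline animal was excluded by the submitters for low depth, and at 12 and 24 h LPS cannot be told apart from collection time. Each animal gave 1 library per tissue, so each tissue has 2 saline libraries (replicates 2 and 3) and 3 libraries per LPS time (replicates 1, 3 and 4).

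In the alpha and gamma arrays each variable first exon has a promoter of its own and is spliced to constant exons shared by the whole array, whereas each beta gene is a single coding exon. A neuron uses a small, largely random choice of the alpha, beta and gamma A and B promoters, while the C-type promoters are used more evenly across neurons. The proteins recognise identical copies on other membranes, which lets a neurite tell its own branches from those of other neurons. Promoter choice depends on DNA methylation, on CTCF and cohesin, and on enhancers that lie beside the arrays. In bulk tissue a weak peak from all cells and a strong one from few cells cannot be told apart, and fewer cells of a type cannot be told apart from less signal per cell.

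The libraries held 204599 to 307186 distinct peaks and 50 to 86 of them lay in the cluster. The lists carry no read depth. The tissue labels were checked against marker genes: of windows called between tissues, Zbtb20 held 61 towards hippocampus and 4 towards cortex, Prox1 6 and 0, and Rorb 1 and 17. Marker genes were read at their starts, or at either end for genes of chromosome 18, where a peak is not shown to be at the start. The neuronal genes Rbfox3, Syt1, Slc17a7, Camk2a, Gad1 and Gad2 had such a peak in all 22 libraries. So did Slc1a3 (astrocytes), Mbp and Mog (oligodendrocytes), and Cx3cr1 and Csf1r (microglia). Aqp4, of astrocytes, had one in 0, the blood genes Hbb-bs and S100a8 in 1 each and the leukocyte gene Ptprc in 17.

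The C-type promoters were open in every library and the beta promoters in few. A gene's promoter was counted as open in a library where a peak summit lay within 1 kb of its start, which leaves each gene its own window since neighbouring starts are at least 3779 bp apart. All 5 C-type promoters had a peak in all 22 libraries, against 0 of 22 beta, 1 of 12 alpha, 4 of 12 gamma A and 2 of 7 gamma B promoters. At the other end, 9 beta and 3 alpha promoters had a peak in 0 libraries, and no gamma promoter did. With peaks of −log10 q of at least 5, as deposited by the authors, all 22 beta promoters had a peak in 0 libraries, and 8 members, the 5 C-type genes, Pcdhgb6, Pcdhgb8 and Pcdhga12, had one in all 22.

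**Figure D1:**
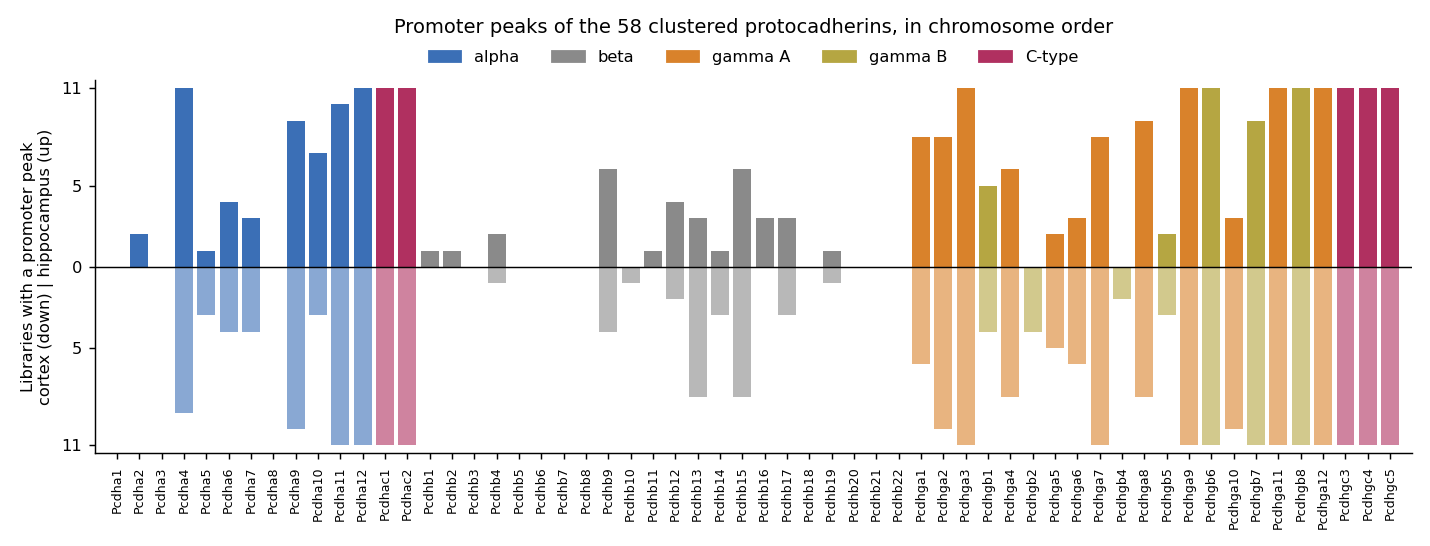
Number of libraries with a promoter peak for each of the 58 genes in chromosome order, hippocampus upwards and frontal cortex downwards, each of 11 libraries, coloured by gene set. The 5 C-type genes reach 11 in both tissues and 9 beta genes have no bar.

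A promoter peak in some but not all libraries was more common here than at other genes. Of the 58 members 34 (58.6%) had a promoter peak in 1 to 21 libraries, against 14.6% of 21263 other gene starts, while 20.7% had one in all 22, against 60.9%. The share with none was 20.7%, against 24.4%. These shares depend on weak peaks. With −log10 q of at least 5, 8 of the 58 members had a peak in all 22 libraries and 31 in none (53.4%). Of the 21263 other starts 12074 had one in all 22 and 6265 in none (29.5%). A peak summit at a member lay at a median of −44 bp from the gene start, near the −42 bp of other genes, and 85.8% were within 200 bp, against 70.8%. The peaks were narrower, with a median of 281 bp against 881 bp. They also ranked lower: ordered by the deposited −log10 p within its library, a member's promoter peak had a median percentile of 48.1, against 93.9 for other genes. The median percentile was 17.2 for beta, 39.5 for alpha, 45.9 for gamma A, 54.7 for gamma B and 90 for C-type promoters. The promoters of a set share much of their sequence, and no source used here says how reads with several matching places were treated. Its part in these values was not tested.

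The C-type genes were not alike in strength. Fold over background is the authors' own value for each peak and is used here to describe peaks, not to test them. At Pcdhac1 (37090136 to 37187657, the first C-type gene of the alpha array) the fold was 8.08 at the lowest, 9.61 at the median and 12.3 at the highest of the 11 hippocampus libraries, and 8.01, 9.49 and 12.1 in cortex. At Pcdhgc3 (37806410 to 37841873, gamma array) it was 6.3, 7.73 and 10.3 in hippocampus and 6.49, 8.71 and 11.4 in cortex. At Pcdhgc5 (37819546 to 37841873) it was 4.14, 4.45 and 5.3 in hippocampus and 3.83, 4.97 and 5.77 in cortex. These 3 promoters were among the 50000 strongest peaks in all 11 libraries of each tissue.

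Pcdhac2 and Pcdhgc4 were open in every library with a lower fold. At Pcdhac2 (37143678 to 37187663) the fold was 3.48, 3.75 and 4.42 in hippocampus and 3.46, 4.15 and 4.94 in cortex, and its peak was broad, with a median width of 1374 bp. At Pcdhgc4 (37815079 to 37841873) it was 2.86, 3.48 and 3.97 in hippocampus and 2.74, 3.38 and 4.07 in cortex. The ranges of the tissues overlapped at each of the 5 genes. The lowest Pcdhac1 fold was above the highest of Pcdhac2 and of Pcdhgc4.

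**Figure D2:**
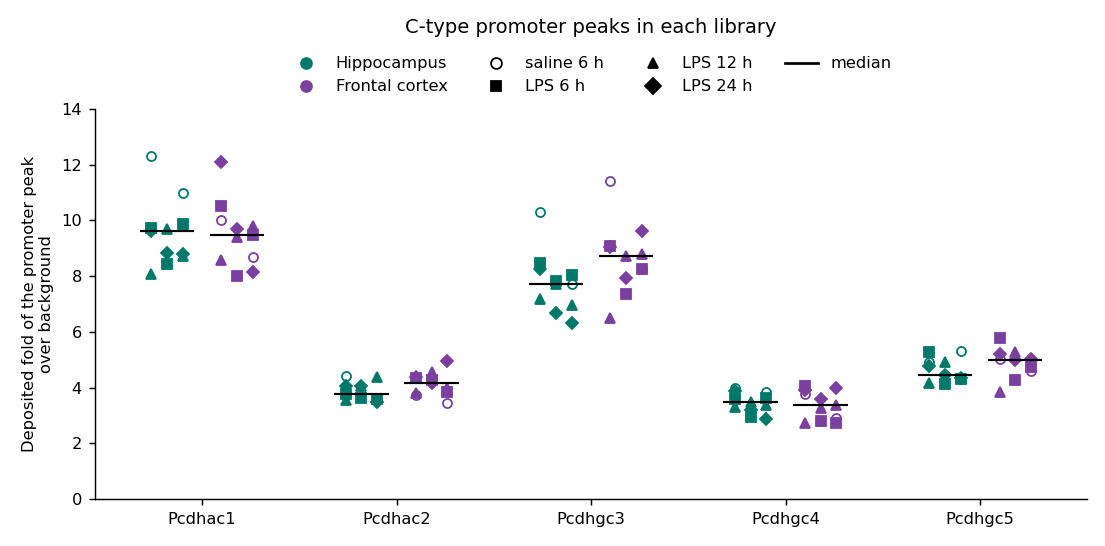
Deposited fold over background of the promoter peak of the 5 C-type genes in each of 22 libraries, by tissue (colour) and group (marker), with the median of each tissue as a line. Pcdhac1 and Pcdhgc3 lie highest and the tissues overlap at every gene.

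Within the alpha array the open promoters lay towards its far end. Pcdha12, the variable gene next to the C-type genes, had a peak in 22 libraries, Pcdha11 in 21 and Pcdha9 in 19. Of the genes further upstream, Pcdha4 stood out with 20. Pcdha1, Pcdha3 and Pcdha8 had none, and Pcdha2 had 2. The first 6 genes had a median of 3 libraries and the last 6 a median of 14.5. At Pcdha12 (37020230 to 37187657) the fold was 2.7, 3.69 and 4.85 as lowest, median and highest in hippocampus and 3.94, 5.26 and 7.32 in cortex. At Pcdha11 it was 2.65, 4.45 and 5.53 in 10 hippocampus libraries and 3.09, 4.06 and 6.49 in 11 cortex libraries. At Pcdha4 it was 2.36, 3.55 and 5.04 in 11 hippocampus libraries and 2.4, 3.61 and 4.75 in 9 cortex libraries.

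The gamma array had the same lean towards its far end, and the beta array did not. Of the gamma A and gamma B starts the first 9 had a median of 14 libraries and the last 9 a median of 22, with Pcdhgb4, in the middle, in neither group. The last 4 had between 20 and 22. In the beta array the first 11 genes had a median of 1 library, the last 11 a median of 3, and the last 4, Pcdhb19 to Pcdhb22, a median of 0. The C-type genes lie beyond the variable genes and are not in these medians. The order along the array is a description of 1 genome and was given no test.

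Gamma A promoters were open in more libraries than gamma B promoters, with medians of 17.5 and 9. Pcdhga3, Pcdhga9, Pcdhga11 and Pcdhga12 had a peak in all 22 libraries. At Pcdhga3 (37674335 to 37841873) the fold ran from 2.8 over a median of 4.63 to 5.43 in hippocampus and from 3.63 over 4.98 to 6.58 in cortex. At Pcdhga9 it ran from 2.37 over 4.07 to 5.43 in hippocampus and from 4.1 over 5.14 to 6.66 in cortex. At Pcdhga11 it ran from 2.76 over 3.89 to 4.72 and from 2.84 over 3.95 to 4.63. The gamma A genes with the fewest libraries were Pcdhga5 with 7, Pcdhga6 with 9 and Pcdhga10 with 13.

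Of the gamma B promoters, Pcdhgb6 and the pseudogene Pcdhgb8 had a peak in all 22 libraries and Pcdhgb7 in 20. At Pcdhgb6 (37742094 to 37841873) the fold was 3.99, 5.01 and 7.43 in hippocampus and 5.21, 6.38 and 7.99 in cortex, and at Pcdhgb8 it was 3.64, 4.62 and 5.84 and 3.32, 4.24 and 6.4. The other 4 were open in fewer. Pcdhgb4 had 2 libraries and Pcdhgb2 had 4, all of them cortex, and Pcdhgb5 had 2 hippocampus and 3 cortex libraries. Pcdhgb1 had 9.

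Beta promoter peaks were few and weak. Pcdhb15 (37473546 to 37476340) had the most, in 6 hippocampus and 8 cortex libraries, with folds of 2.33 to 3.24 and 2.44 to 3. Pcdhb13 had 3 and 8 libraries, with folds of 1.92 to 3.06 and 2.1 to 3.39, and Pcdhb9 had 6 and 4, with 2.37 to 3.2 and 2.02 to 2.86. Pcdhb3, Pcdhb5, Pcdhb6, Pcdhb7, Pcdhb8, Pcdhb18, Pcdhb20, Pcdhb21 and Pcdhb22 had none. These peaks sat close to the start, with 98.4% of 63 summits within 200 bp, and had a median width of 164 bp. At this strength a missing peak shows only that none passed the authors' peak caller, not that a promoter was closed.

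The strongest open sites of the region were not at protocadherin promoters. Of the 142 windows, 28 (19.7%, against 18.4% of all windows) had a peak in all 22 libraries, and 15 of these 28 lay more than 1 kb from a member's start. The highest was at an end of Taf7 (37643976 to 37644476), the gene of a general transcription factor subunit that lies between the beta and gamma arrays, with a median fold of 15.2 in hippocampus and 17.1 in cortex and a percentile of 99.6. A neighbouring pair of windows lay in the gap of 76.1 kb between the alpha and beta arrays, at 37217135 to 37217635 and 37218011 to 37218511, which is 47.6 and 46.7 kb before Pcdhb1. Their median fold was 9.72 and 9.92 in hippocampus and 8.38 and 10.2 in cortex, and they ranked at the 97.7 and 98.2 percentile. Both ranked above every protocadherin promoter, of which Pcdhgc3 was the highest at 94.9.

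Other constant sites lay inside or next to the arrays. Past the Pcdhac2 start, in the stretch of 45.2 kb that runs to the end of the alpha array, 3 windows more than 1 kb from a start were present in all 22 libraries. They stood at 37149220 to 37149720 (5.79 kb past the start, median fold 3.11 in hippocampus and 3.03 in cortex), at 37172169 to 37172669 (28.7 kb past it, 7.1 and 7.34) and at 37178310 to 37178810 (34.9 kb past it, 7.06 and 4.81). The gamma array held 5 such windows, 2.71 kb past the start of Pcdhga12, 19.6 and 5.4 kb before Pcdhgc3, and 6.77 and 22 kb past the start of Pcdhgc5. A further one lay outside it, 5.89 kb before Pcdhga1. The beta array held 15 windows, of which 14 were within 1 kb of a start and 0 were in all 22 libraries. No window was matched to a named enhancer, since positions of those were not used here.

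**Figure D3:**
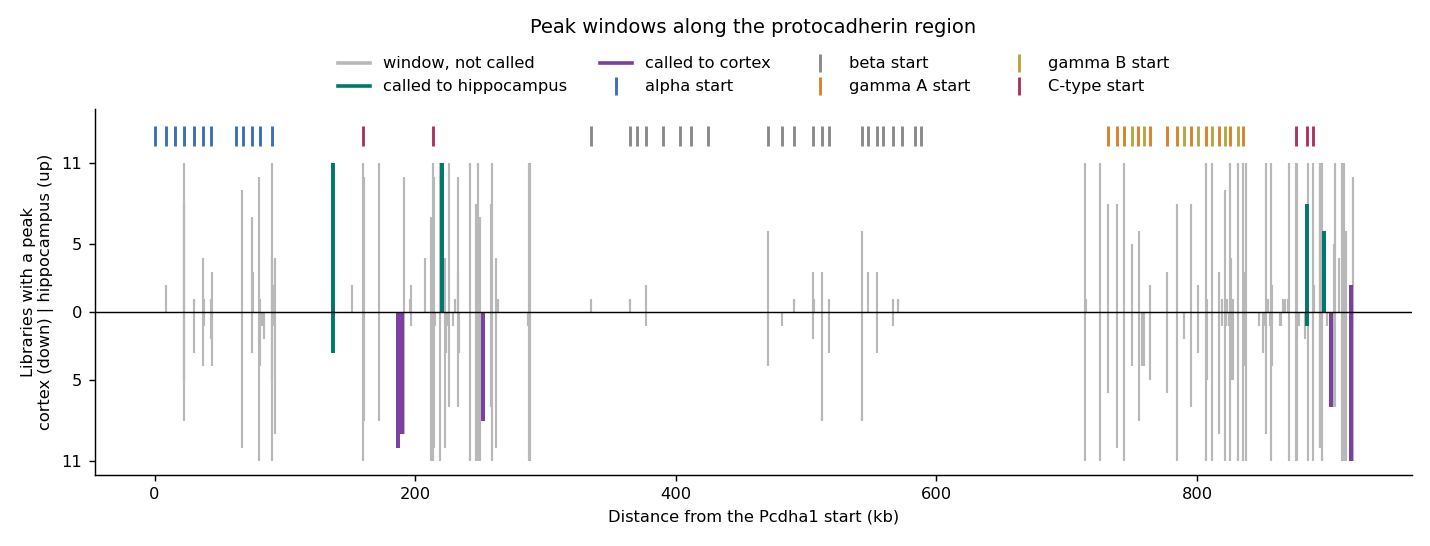
Each vertical line is 1 of 142 peak windows, placed by its distance in kb from the Pcdha1 start, and reaches up to the number of hippocampus libraries and down to the number of cortex libraries with a peak, each of 11. Ticks at the top mark gene starts by set, coloured lines are the 9 windows called between tissues, and the beta array holds few and short lines.

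The next question was whether the cluster differed between hippocampus and frontal cortex. Of its windows, 80 had a peak in 2 to 20 libraries and could be tested, and 9 were called, 4 towards hippocampus and 5 towards cortex (Fisher's exact test on 11 against 11 libraries, Benjamini-Hochberg adjusted over all windows at 0.05). This is 11.2% of those tested, below the background of 30.5% over all 327394 tested windows (18.3% towards hippocampus and 12.2% towards cortex). Of the 9, 8 lay more than 1 kb from a member's start, 20.5% of the 39 tested there, and 1 lay within 1 kb, 2.44% of 41. The share by distance was not taken over all windows, so this split has no background and is not shown to be particular to the cluster. No beta window was called.

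In the alpha array 2 windows were called towards hippocampus and 3 towards cortex, around the C-type genes. Towards hippocampus, the window at 37150372 to 37150872, 6.94 kb past the Pcdhac2 start, had a peak in 11 hippocampus and 0 cortex libraries (Fisher's exact test, adjusted p = 4.32e-05). The window at 37067085 to 37067585, 22.8 kb before Pcdhac1, had one in 11 and 3 (Fisher's exact test, adjusted p = 0.00521). Every hippocampus library carried both windows, whatever the challenge, and the 3 cortex libraries with the second were 1 saline and 2 LPS 24 h libraries.

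Windows towards cortex lay on either side of Pcdhac2. Those at 37116727 to 37117227 and 37119945 to 37120445, 26.7 and 23.5 kb before it, had a peak in 0 hippocampus libraries and in 10 and 9 cortex libraries (Fisher's exact test, adjusted p = 0.000297 and 0.00145). Another, at 37182004 to 37182504, 38.6 kb past the Pcdhac2 start, had a peak in 0 and 8 (Fisher's exact test, adjusted p = 0.00521). In each of these 3, all 4 challenge groups of cortex held at least 1 library with the peak. A further window, at 37848070 to 37848570 in Diaph1, the formin gene next to the gamma array, had one in 2 hippocampus and 11 cortex libraries (Fisher's exact test, adjusted p = 0.00145).

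The remaining 3 calls lay near the gamma C-type genes and did not pass with the animal as replicate block. The window at 37814467 to 37814967, 362 bp before Pcdhgc4, had a peak in 8 hippocampus libraries and 1 cortex library (Fisher's exact test, adjusted p = 0.0289). The window at 37827762 to 37828262, 8.47 kb past the Pcdhgc5 start, had one in 6 and 0 (Fisher's exact test, adjusted p = 0.0406), and that at 37833082 to 37833582, 13.8 kb past it, in 0 and 7 (Fisher's exact test, adjusted p = 0.0156). With the animal as replicate block, an exact sign test over the 11 animals, these 3 calls were lost (adjusted p = 0.122, 0.0989 and 0.0601). That left 2 windows towards hippocampus and 4 towards cortex, which is 6 of the 80 tested windows of the cluster. The background was 20.9% of all tested windows. The call before Pcdhgc4 was kept in 3 and lost in 8 of the 11 fits that left out 1 animal, and that 8.47 kb past Pcdhgc5 was kept in 5 and lost in 6. The call 13.8 kb past Pcdhgc5 was kept in all 11.

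1 of the 29 promoters that could be tested was called. Pcdhga10 (37747016 to 37841870) had a promoter peak in 3 hippocampus and 10 cortex libraries (Fisher's exact test, adjusted p = 0.0485), where 15.5% of 2420 tested gene starts were called, 6.74% towards cortex and 8.76% towards hippocampus. No member was called towards hippocampus. Its fold was 3.03 in 1 saline hippocampus library and 3.34 and 2.75 in 2 LPS 6 h libraries. In cortex it was 3.47 and 2.38 with saline, 3.86, 2.58 and 2.6 at 6 h, 3.05 and 3.19 in 2 libraries at 12 h, and 2.79, 2.81 and 3.37 at 24 h. The 7 animals in which the tissues differed all had the peak in cortex. The call was lost with the animal as replicate block (exact sign test, adjusted p = 0.101, background 8.35%). It was kept in 4 and lost in 7 of the 11 fits that left out 1 animal. Tested as a window, the site at 37746702 to 37747202, 0.064 kb before the Pcdhga10 start, was not called. It had a peak in 3 hippocampus and 9 cortex libraries (Fisher's exact test, adjusted p = 0.0917). Of the 3 astrocyte markers, Gfap had a promoter peak in 10 hippocampus and 0 cortex libraries (adjusted p = 0.000619 by Fisher's exact test), while Aqp4 had one in 0 and Slc1a3 in 22. What part the cell mix had in these tissue differences was not tested.

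Restricting the test to stronger peaks changed which windows passed. With peaks of −log10 q of at least 5, 12 of 51 tested windows were called, against a background of 34.9%, and 5 of the 9 calls above were among them. The windows 22.8 kb before Pcdhac1 and 38.6 kb past the Pcdhac2 start were tested and not called (Fisher's exact test, adjusted p = 0.548 and 0.594). Those 8.47 and 13.8 kb past the Pcdhgc5 start could not be tested, since fewer than 2 libraries held such a peak. Other windows were called only with these stronger peaks. The window at 37156141 to 37156641, 12.7 kb past the Pcdhac2 start, had such a peak in 11 hippocampus and 0 cortex libraries (Fisher's exact test, adjusted p = 3.51e-05). With all peaks it had one in 11 and 7. The windows 9.45 and 36.7 kb past the Pcdhac2 start each had one in 0 and 9 (Fisher's exact test, adjusted p = 0.00122). At the promoter of Pcdhga7 it was 3 and 11 libraries (Fisher's exact test, adjusted p = 0.00949, background 16.3%), and Pcdhga10 was not called. Among its library's 50000 strongest peaks the promoter of Pcdhga12 was found in 4 hippocampus and 11 cortex libraries (Fisher's exact test, adjusted p = 0.0322, background 12%). With the 200000 strongest peaks of each library, 11 of 60 tested windows were called, against a background of 35.5%, and 6 of the 9 calls above were among them. Among the 50000 strongest 4 of 14 tested windows were called, none of them in the alpha array. The 9 windows called above could not be tested there, since fewer than 2 libraries held such a peak. Of the 4 called, the window 18 kb past the Pcdhga12 start was found in 9 and 0 (Fisher's exact test, adjusted p = 0.00107, background 37.5%).

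By number of peaks, the cluster took a larger share of the cortex lists. Hippocampus libraries held 65 ± 9.65 cluster peaks (SD, n = 11) and cortex libraries 73.1 ± 7.41 (SD, n = 11), although hippocampus lists were longer, 262158 ± 21630 against 242051 ± 22842 (SD, n = 11 each). Per 100000 peaks of the library this was 24.7 ± 2.23 in hippocampus and 30.3 ± 2.44 in cortex (SD, n = 11 each), higher in cortex in 10 of 11 animals. The exception was the animal of saline replicate 2, with 27.7 in hippocampus and 26.4 in cortex. Among the 200000 strongest peaks of each library, a number chosen after the data were seen, it was 47.7 ± 3.23 and 59.7 ± 6.03 cluster peaks, also higher in cortex in 10 of 11. Among the 50000 strongest it was 10.4 ± 1.12 and 10.5 ± 0.82, higher in cortex in 3 animals, lower in 4 and equal in 4. No test was made of these sums over the cluster. Of the neuronal markers, Rbfox3 held 9 windows called towards hippocampus and 22 towards cortex, Syt1 13 and 32, Snap25 3 and 3, Slc17a7 0 and 1, Camk2a 1 and 1, Gad1 5 and 0 and Gad2 1 and 1, where more of all windows were called towards hippocampus. The part of the neuronal content of the tissues in the cluster counts was not tested.

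**Figure D4:**
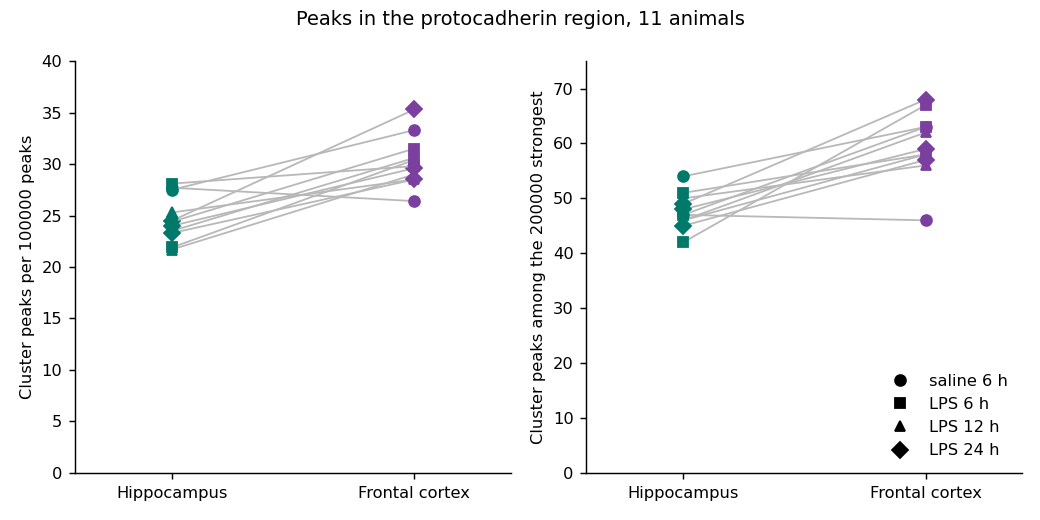
Cluster peaks per 100000 peaks of the library (left) and among its 200000 strongest peaks (right) in hippocampus and frontal cortex, with 1 line per animal and a marker for its group. In each panel the line rises towards cortex in 10 of 11 animals.

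Open promoters were counted in the same way. Of the 58 members 24.9 ± 5.32 had a promoter peak in a hippocampus library and 26.8 ± 4 in a cortex library (SD, n = 11 each), higher in cortex in 6 of 11 animals, a difference of 1.91 that is smaller than the SD of 7.2 between animals. Among the 200000 strongest peaks of each library the counts were 19.5 ± 2.91 and 22.4 ± 2.8 (SD, n = 11 each), higher in cortex in 9 of 11 animals, with a difference of 2.91 and an SD of 3.67. Over all gene starts the count from those peaks was also higher in cortex, in 11 of 11 animals, at 13760 ± 45.9 in hippocampus and 13944 ± 56.8 in cortex (SD, n = 11 each). By set the hippocampus and cortex means were 5.27 and 5 of 12 alpha, 2.91 and 2.82 of 22 beta, 8.27 and 9.82 of 12 gamma A and 3.45 and 4.18 of 7 gamma B promoters. Gamma A and gamma B counts were each higher in cortex in 7 of 11 animals.

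The last question was whether the cluster differed after LPS. In the authors' deposited table of each of the 6 comparisons (LPS at 6, 12 and 24 h against saline, within a tissue), 0 regions lay in the cluster. The authors' deposited table for cortex at 24 h lists 5540 regions, which touch 1.64% of the windows found in 2 or more cortex libraries, and 0 of the 95 such windows of the cluster. In cortex at 6 and 12 h the share of windows touched was 0.0969 and 0.0149%, and in hippocampus at 6, 12 and 24 h it was 0.00677, 0.856 and 0.05%, of which the cluster again had 0 of 95 and 0 of 91 windows. Nearest was a region 440 kb away, in the authors' deposited table for cortex at 24 h.

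Counts of open promoters stood below saline in hippocampus at every time and above it in cortex at 24 h. In hippocampus the 2 saline libraries had 34 and 30 open promoters. The LPS libraries had 25, 29 and 16 at 6 h, 18, 25 and 27 at 12 h, and 24, 26 and 20 at 24 h, all 9 below both saline libraries. In cortex the saline libraries had 27 and 24, and LPS libraries 29, 20 and 28 at 6 h, 24, 24 and 25 at 12 h, and 32, 34 and 28 at 24 h. The 24 h cortex libraries were all above saline and those at 6 and 12 h overlapped it. Over all gene starts the groups overlapped, with 14734 and 14139 open starts in hippocampus with saline and 14059 to 14427 with LPS, and 14172 to 14483 and 13907 to 14554 in cortex.

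When each library gave the same number of peaks, the groups overlapped in both tissues. Among the 200000 strongest peaks the open promoters numbered 16 and 25 in the hippocampus saline libraries and 15 to 22 with LPS, and 18 and 22 in cortex with saline and 21 to 27 at 24 h. The mean at 24 h minus that of saline was then −0.833 in hippocampus, against −8.67 with all peaks, and 4 in cortex, against 5.83. With peaks of −log10 q of at least 5 they numbered 16 and 17 with saline and 10 to 17 with LPS in hippocampus, and 15 in each saline library and 18 to 22 at 24 h in cortex, where the groups did not overlap. With 3 libraries against 2 no exact two-sided permutation p can fall below 0.1, and every time point was set against the same 2 saline libraries.

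**Figure D5:**
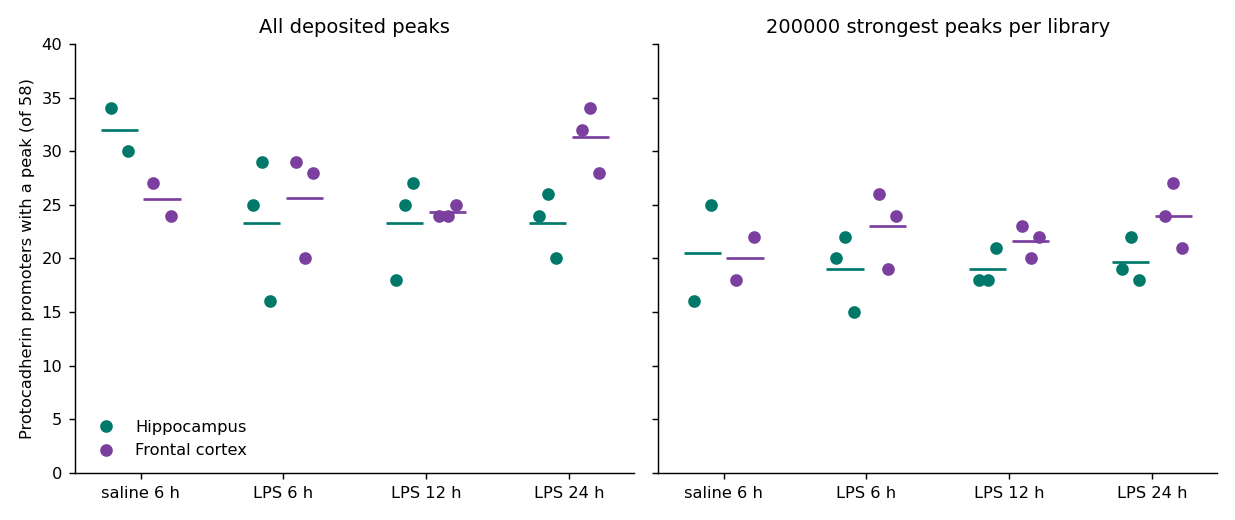
Number of the 58 protocadherin promoters with a peak in each library, by group and tissue, with the mean as a line, from all deposited peaks (left) and from the 200000 strongest of each library (right). On the left the 2 hippocampus saline libraries, at 34 and 30, lie above all 9 LPS libraries, and on the right the groups overlap.

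Beta promoters made up −4.39 of the mean LPS minus saline difference of −8.67 in hippocampus, over all 9 LPS libraries. There 7 and 6 beta promoters were open with saline, and 2, 4 and 0 at 6 h, 1, 4 and 3 at 12 h and 2, 3 and 0 at 24 h, all below saline. In cortex it was 3 and 2 with saline, 1, 1 and 1 at 6 h, 1, 3 and 5 at 12 h, and 5, 5 and 4 at 24 h. The alpha counts in hippocampus were 6 to 8 with saline and 3 to 6 with LPS, and the gamma A counts 9 to 12 and 5 to 10, so these ranges met or overlapped. The gamma B counts there were 2 to 4 with saline and 3 to 4 with LPS, a mean difference of 0.556 in the other direction. All 22 beta promoters lacked a peak of −log10 q of at least 5, so the beta counts rest on weak peaks. All 5 C-type promoters were open in each library of each group.

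Few single promoters switched. Pcdha2 (36939205 to 37187661) had a promoter peak in both hippocampus saline libraries, with folds of 2.71 and 2.88, and in 0 of 9 LPS libraries. It was the only member of 43 open in any of these libraries to do so (2.33%), where 0.0814% of all open starts did, and only 1 of the 2 peaks was among the 200000 strongest. At single times, a peak in both saline libraries and no LPS library was also found in hippocampus for Pcdhb12, Pcdhb13 and Pcdhb17 at 6 h and for Pcdhb13 and Pcdhb17 at 24 h. With Pcdha2 this made 4 of 41 open member promoters at 6 h (9.76%), 1 of 39 at 12 h (2.56%) and 3 of 39 at 24 h (7.69%), against 0.332, 0.332 and 0.364% of all open starts. Member promoter peaks are weaker than most, and the part of this in the shares was not tested. In cortex Pcdhb14 had a promoter peak in 3 of 3 libraries at 24 h and 0 of 2 with saline, against a background of 0.468%, and its folds there were 2.02 to 2.4. In cortex 0 member promoters were gained at 6 and 12 h (background 0.16 and 0.161%) and 0 were lost at 6, 12 and 24 h (background 0.243, 0.213 and 0.179%). In hippocampus 0 were gained at 6, 12 and 24 h (background 0.102, 0.191 and 0.115%).

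Windows of the cluster were counted in the same way, and they include promoter peaks counted above. All hippocampus windows lost at 6 h were those at the starts of Pcdha2, Pcdhb13 and Pcdhb17. The same windows were among those lost at 24 h, so these counts are no separate support for the promoter counts. In hippocampus 3, 3 and 5 windows had a peak in both saline libraries and in no library at 6, 12 and 24 h, against backgrounds of 1.51, 1.39 and 1.61%, which is 2.91, 3.09 and 4.85% of those with a peak. The window 33.1 kb past the Pcdhac2 start (37176526 to 37177026) had one in 0 of 2 saline, 2 of 3 at 6 h, 3 of 3 at 12 h and 3 of 3 at 24 h libraries of hippocampus, where 0.517, 1.29 and 1.12% of all windows were gained at 6, 12 and 24 h. It had one in all 11 cortex libraries. In cortex 1, 1 and 2 windows were gained, with backgrounds of 0.66, 0.942 and 3.03%, and 0, 0 and 1 lost, with backgrounds of 1.17, 1.24 and 0.827%. Among the 200000 strongest peaks of each library the hippocampus windows lost, summed over the 3 times, numbered 0, against 11 with all peaks.

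The genes known to act on the cluster or with its proteins were read at their own starts. Of 22 listed regulators, among them Ctcf, Smc1a and Smc3 of the CTCF and cohesin system and the DNA methylation genes Dnmt1, Dnmt3a and Dnmt3b, 17 had a start in the promoter table. Of these 16 had a peak in all 22 libraries and could not be tested. Tet1, a methylcytosine dioxygenase gene, had one in 20, 10 in each tissue. It was not called between tissues, where 15.5% of 2420 tested gene starts were. Of 20 listed signalling partners and proteases, 11 had a start, among them Wasf1 and Cyfip2 of the WAVE complex and the protease gene Adam10, and all 11 had a peak in all 22 libraries. Since genes with a peak in all 22 libraries cannot be tested by presence, these counts do not speak to the strength of a peak. Nor do they cover windows beyond the starts. Stag1 held 8 windows called towards hippocampus and 10 towards cortex, Smchd1 6 and 0, Cyfip2 2 and 8, Nlgn1 39 and 25 and Robo1 34 and 19. Smc1a and Dnmt1 held 0 in either direction. These genes are examples, and no share of tested windows was taken per gene. The neighbouring genes, on chromosome 18, were read at either end. Taf7, Diaph1 and Zmat2 had a peak at an end in all 22 libraries, and Slc25a2, a mitochondrial carrier gene, in 0.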

How the data were processed

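The authors deposited 1 peak list per library and 6 tables of regions from csaw, per the labels. Per the submitters' processing notes, the tools were MACS2 2.2.7.1, Bowtie2 2.4.4, Trim Galore 0.6.7 and FastQC 0.11.9, with the build GRCm38. Filters, the treatment of reads with several matches and any transposase shift are not given in the sources used here. Each deposited peak has a score, a fold ratio over background, −log10 p and −log10 q, and these values are the authors'. The deposited −log10 p was at least 2 in every library, so the lists hold weak peaks. Tissue pieces of 20 to 30 mg gave paired reads of 50 bp, per the labels.

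Peaks that share an interval were counted once. Windows that reach 250 bp to either side were placed on summits, strongest first relative to the library's total, and a window was present where a peak overlapped it by 50% of the shorter. Tissues were compared over windows or starts with a peak in 2 to 20 libraries (two-sided Fisher's exact test, p-values adjusted by Benjamini-Hochberg over all of them, 0.05). The animal pairs the tissues per the labels, and the paired alternative was an exact sign test. Member starts are the low-coordinate side of the RefSeq gene (GRCm38), since no strand is given. Other starts are 21263 from RefSeq promoters and 451 genes of chromosome 18 read at either end. Promoter sequences of the members were not used here. Percentiles are the share of a library's peaks with an equal or lower −log10 p, the peak itself included.

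The members and lists were chosen with earlier results of these data known. Values per library were given for the C-type genes, for the 3 genes of each other set found in the most and in the fewest libraries, and for called promoters and windows; windows in all libraries, those called with stronger peaks and those that switch were chosen after their values were seen. Alternatives were −log10 q of 5, the 50000 strongest peaks, a summit in the window, 500 and 2000 bp, the animal block and leaving out each animal. Added after the data were seen were the 200000 strongest peaks and, for counts per library, leaving out each animal. The tests were tested on simulated data with large planted differences and libraries drawn independently. Smaller differences and the pairing of tissues within an animal were not covered. Python 3.11.15, numpy 2.4.6, pandas 2.3.3, scipy 1.17.1, numba 0.67.0 and matplotlib 3.10.9 were used.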

Additional observations from a re-analysis of the deposited data

Results flagged for a closer look

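At 24 h after LPS, 3 counts moved in opposite directions in the tissues, with every LPS library of hippocampus below and every LPS library of cortex above both saline libraries. The difference between the tissues was not tested. Open protocadherin promoters differed from saline by −8.67 in hippocampus and 5.83 in frontal cortex (means of 3 libraries minus means of 2). Open beta promoters differed by −4.83 and 2.17, and the number of cluster peaks by −15 and 10.2. The 3 counts overlap in what they count. Per 100000 peaks of the library, the cluster peaks differed by −3.67 in hippocampus, still with all LPS libraries lower, and by 1.28 in cortex, where the ranges overlapped. The number of peaks per library over the whole genome overlapped between these groups, with mean differences of −20069 in hippocampus and 21431 in cortex. Its part in the counts was not tested.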

How the results depend on the processing

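Window calls between tissues (4 towards hippocampus, 5 towards cortex) were 8 towards cortex with −log10 q of 5 or with the 200000 strongest peaks, 2 and 2 with the 50000 strongest, and 2 towards hippocampus with the animal as replicate block. They ranged from 2 to 4 towards hippocampus and 5 to 6 towards cortex when 1 animal was left out. Promoter calls towards cortex were 0, against 1, with the 200000 strongest peaks, with 500 bp and with the replicate block, and 0 to 1 when 1 animal was left out. Towards hippocampus they were 0 under each of these.

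LPS minus saline in open hippocampal promoters (−8.67) became −2.94 with −log10 q of 5, −0.667 with the 50000 and −1.28 with the 200000 strongest peaks, and ranged from −10.7 to −6.67 when 1 animal was left out. These differences start from unlike counts. The hippocampus saline mean was 32 with all peaks, 16.5 with −log10 q of 5 and 20.5 with the 200000 strongest. With the 50000 strongest each hippocampus saline library had 4. In cortex the difference of 1.61 ranged from 0.111 to 3.11 and that between tissues of 1.91 from 0.9 to 3. Per 100000 peaks, cortex minus hippocampus (5.55) became 0.364 and LPS minus saline in hippocampus (−3.52) became −0.333 with the 50000 strongest. LPS minus saline in cortex (0.526) became 3.19 with the 200000 strongest, and was −2.92 without saline replicate 2 and 3.97 without saline replicate 3, the ends of its range.

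Windows that switch, summed over 3 times, were 2 gained and 11 lost in hippocampus and 4 gained and 1 lost in cortex. With −log10 q of 5 they were 0 and 2 in hippocampus and 2 lost in cortex, with the 50000 strongest 0 and 2, and 2 and 0, and with the 200000 strongest 0 lost in hippocampus and 2 and 3 in cortex. Leaving out 1 animal gave 2 to 5 gained and 11 to 47 lost in hippocampus and 4 to 20 gained and 1 to 18 lost in cortex. Without saline replicate 3 there were 47 lost in hippocampus and 20 gained and 18 lost in cortex. Without saline replicate 2 there were 5 gained in hippocampus and 13 lost in cortex, and without LPS 24 h replicate 4 there were 11 gained in cortex. The cause of these changes was not tested. With an unknown depth, peaks near the authors' threshold can be missed in any library.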
